A study of Homo sapiens with 2 samples.

Results

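The genes described are 45 interferon-stimulated and antigen presentation genes, chosen from a fixed list of gene symbols and read in CL1-0, an established human lung adenocarcinoma line. Of the 45, 44 were named by at least 1 probe set, among 19775 genes with a probe set annotated to 1 gene, and STAT2 was not analysed here. A probe set is a group of short probes on the array that together read 1 transcript region. The 44 genes had 82 probe sets of 54675 on each array, 80 annotated with 1 gene and 2 with several.

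The study has 2 arrays. One holds RNA from CL1-0 cells given an antibody to FSTL1, a secreted glycoprotein of the follistatin family, for 6 h, and the other holds RNA from CL1-0 cells at 0 h of the same antibody. Per the labels' protocols, cells of both arrays were stably transduced and had been under puromycin, with no vector named. Both came from 1 cell line. There is 1 array per time, so no difference below has a spread between replicates, a test or a replicate check, and time in culture cannot be told apart from the antibody.

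Interferons are secreted proteins that warn cells of viral infection. Type I and type III interferons act through receptors and JAK kinases on a protein complex that includes STAT2 and IRF9. This complex binds the interferon-stimulated response element, a short DNA sequence near the start of antiviral genes. Interferon gamma acts mainly on gamma-activated sites, and through IRF1 and NLRC5 it raises the genes of MHC class I. These genes load peptides from inside the cell onto HLA molecules for display to T cells, and tumour cells with low MHC class I can escape them.

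The response element is shown first, as a description of the sequence. The members were picked as interferon-stimulated genes, and the element lies near the start of many such genes. A high share among members therefore follows largely from the choice of genes and is not separate evidence. Its core was searched as GAAANNGAAA on both strands of RefSeq promoter windows (GRCh38.p14, 250 bases before to 50 after the start of each gene), where N is any base. Of 36 members with a window, 26 (72.2%) held the core, against 1195 of all 27305 genes with a window (4.38%). It was found in 11 of 17 members whose signal was above the background floor defined below (64.7%) and in 15 of 18 that were not (83.3%). The following stretches, read 5′ to 3′ on the strand of the gene, come from members above the floor on both arrays and then from members under it. Capitals mark the match nearest the start and any match that overlaps it.
ISG15: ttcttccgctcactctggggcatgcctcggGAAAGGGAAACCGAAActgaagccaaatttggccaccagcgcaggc
HERC5: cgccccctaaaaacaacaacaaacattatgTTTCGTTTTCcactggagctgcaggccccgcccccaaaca
IFITM3: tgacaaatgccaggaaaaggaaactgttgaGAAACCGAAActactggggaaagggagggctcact
B2M: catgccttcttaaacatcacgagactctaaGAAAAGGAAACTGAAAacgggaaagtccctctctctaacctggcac
TAP1: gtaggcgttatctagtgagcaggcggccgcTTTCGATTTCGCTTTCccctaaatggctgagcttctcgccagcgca
TAPBP: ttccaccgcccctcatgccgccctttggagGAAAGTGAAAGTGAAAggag
IFIT1: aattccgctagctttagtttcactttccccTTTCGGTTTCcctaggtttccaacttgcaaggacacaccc
BST2: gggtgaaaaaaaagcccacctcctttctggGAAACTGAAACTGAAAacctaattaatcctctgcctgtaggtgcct
DDX60: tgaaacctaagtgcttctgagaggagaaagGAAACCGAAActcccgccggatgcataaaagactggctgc
IFI27: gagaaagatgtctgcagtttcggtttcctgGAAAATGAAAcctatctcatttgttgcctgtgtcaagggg

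On GRCh38.p14 the stretch of ISG15 lies at chr1:1013354-1013429 on the plus strand and that of HERC5 at chr4:88457015-88457084 on the plus strand. IFITM3 lies at chr11:320861-320925 on the minus strand, B2M at chr15:44711343-44711418 on the plus strand, TAP1 at chr6:32853793-32853868 and TAPBP at chr6:33314079-33314128, both on the minus strand. IFIT1 lies at chr10:89392490-89392559 on the plus strand, BST2 at chr19:17405715-17405790 and DDX60 at chr4:168318766-168318835, both on the minus strand, and IFI27 at chr14:94110611-94110680 on the plus strand. The matches of ISG15, BST2, B2M, TAP1 and TAPBP are 2 overlapping copies each. The core of the gamma-activated site, TTCNNNGAA, was found in 12 of the 36 members (33.3%) and in 2560 of 27305 genes (9.38%), and in 5 members it overlapped the first motif. A match is a description of the letters and was not tested for binding.

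**Figure D1:**
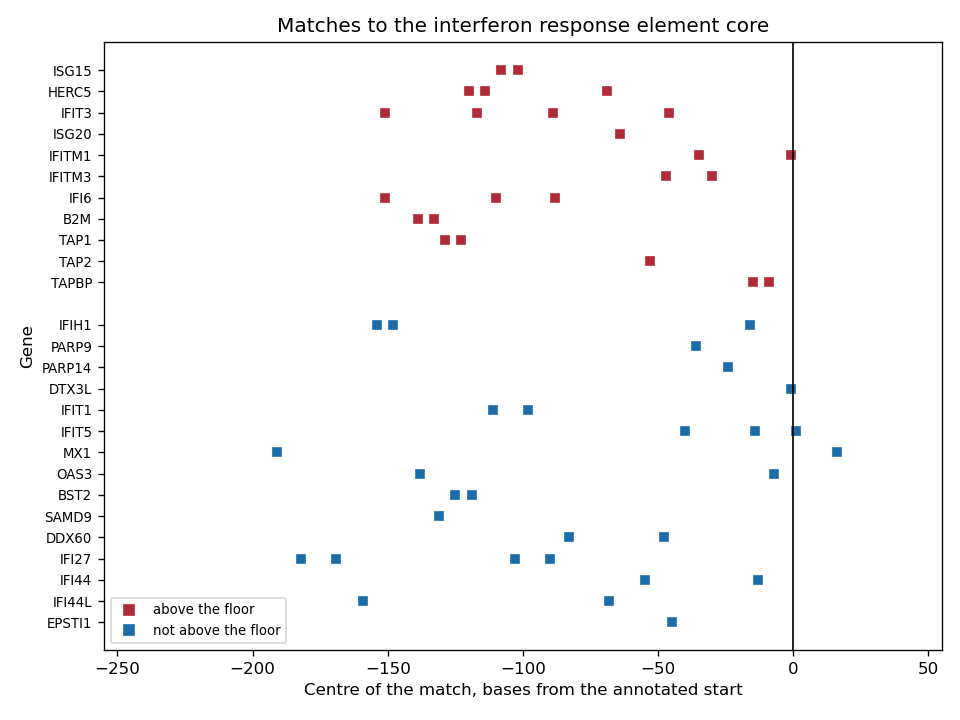
Position of matches to the interferon response element core in the promoter windows of 26 members, as bases from the annotated start to the centre of the match. Red squares are members above the floor and blue squares members not above it, genes with several annotated starts show the matches of each window, and the centres lie between -191 and 16 bases, with matches in both sets of genes.

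The authors deposited an intensity for each probe set, not on a log scale, made with MAS5 per the submitters' processing notes. The floor is an intensity of 45.4, which is the 50th percentile when both arrays are pooled, and it stands for an assumed background. The set with the highest mean stands for its gene, which counts as measured when this set is above the floor on at least 1 array. Intensities of different probe sets depend on their sequence, so levels are not ranked between genes. Of the 44 members 22 were measured (50%), against a background of 64.1% of all genes. All 7 members of MHC class I presentation were measured, and 15 of the 37 others.

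**Figure D2:**
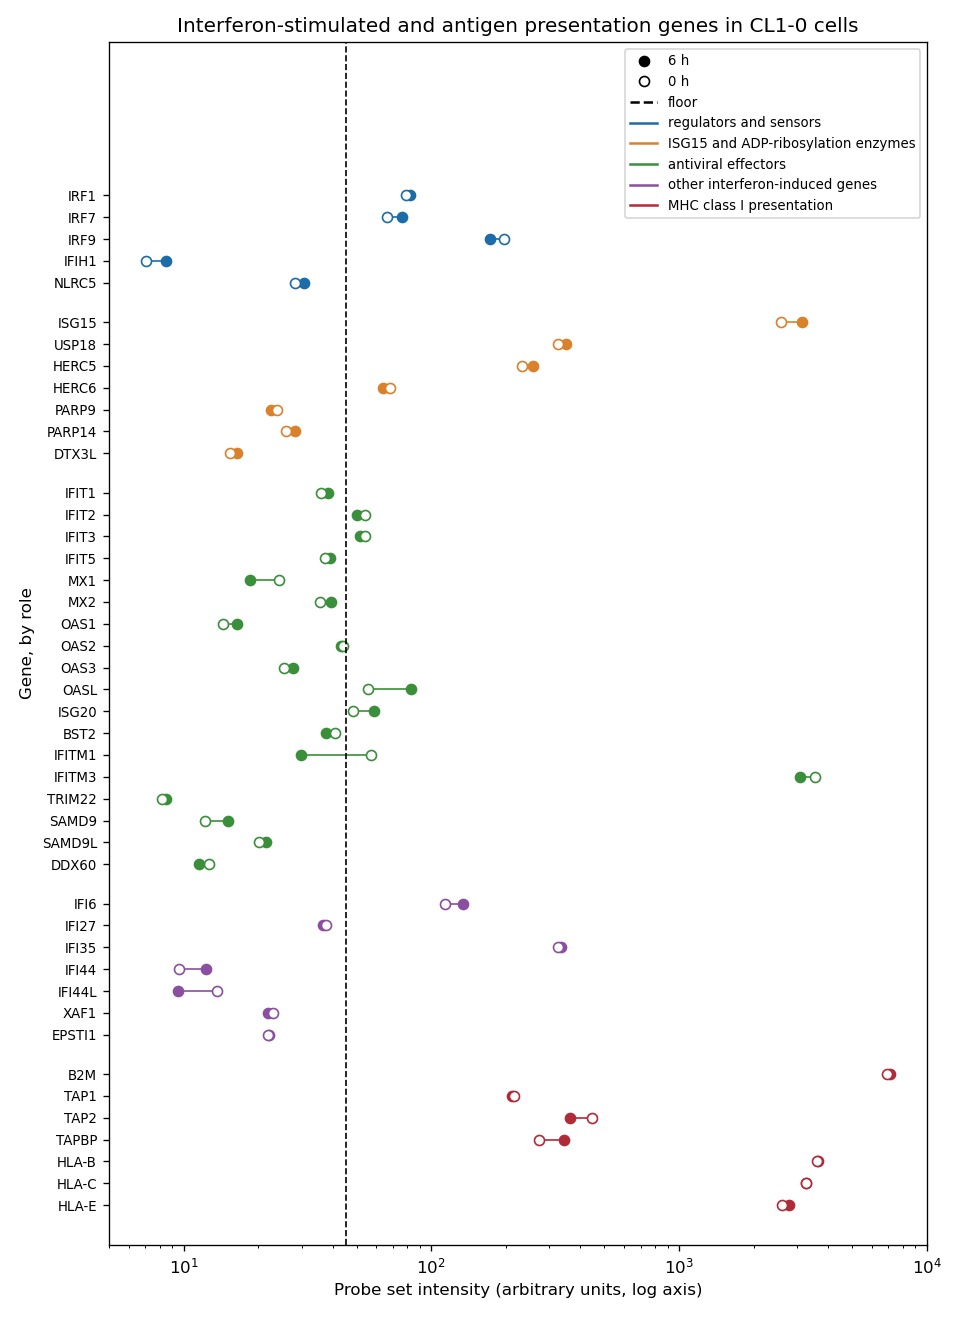
Intensity of the brightest probe set of each of the 44 members on a log axis, with filled circles for 6 h and open circles for 0 h, coloured by role, and the floor of 45.4 as a dashed line. All 7 MHC class I presentation genes lie right of the floor, while 22 members, among them IFIT1, MX1 and OAS1, lie left of it on both arrays.

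Over the 22 measured members the median log2 difference, taken as 6 h minus 0 h after values under the floor were set to it, was 0.04, with a range of -0.33 to 0.57. Over all 12669 measured genes the median was 0.02. By any amount, 14 members were higher at 6 h (63.6%) and 8 lower, where 54.3% of all genes were higher and 45.7% lower. After quantile or loess scaling of the arrays 11 members were higher and 11 lower. At least 1.2-fold higher were 4 members, ISG15, OASL, ISG20 and TAPBP, which is 18.2% of those measured, against a background of 9.9% of all genes. At least 1.2-fold lower were 2, IFITM1 and TAP2, or 9.09%, against a background of 5.29%. With quantile scaling the background was 7.5% of genes higher and 7.15% lower. Whether these shares differ from the background was not tested, and for TAP2 and OASL the sets of the gene do not all show the difference. At 1.5-fold 0 members were higher and 0 lower, where 0.75% of all genes were higher and 0.182% lower. Error could be gauged only from how far the probe sets of 1 gene scatter, and these are not replicates. Its pooled SD on the log2 scale was 0.16 over 6122 genes and 0.18 over the 7 members with several measured sets.

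**Figure D3:**
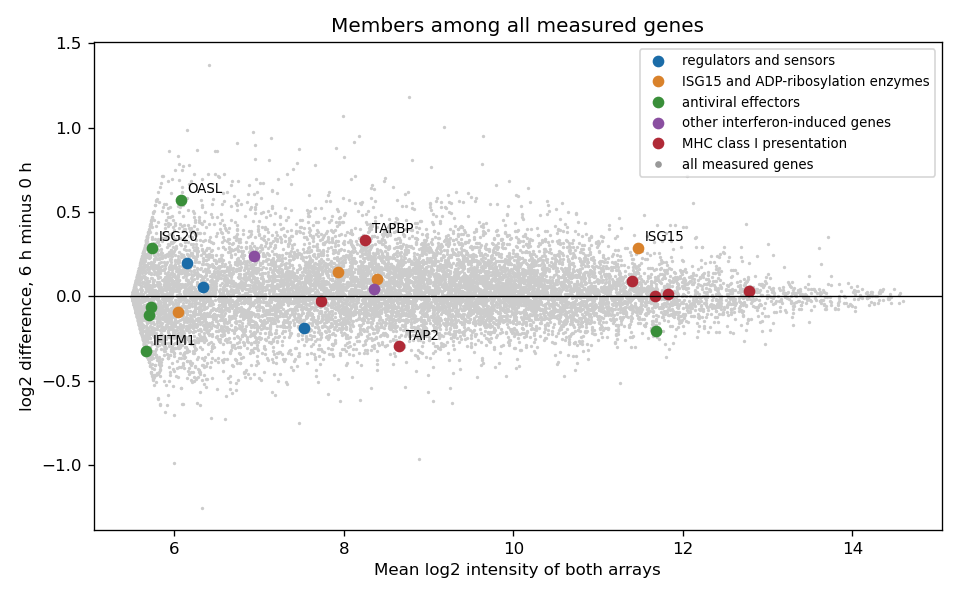
The log2 difference, 6 h minus 0 h, against the mean log2 intensity of both arrays for 12669 measured genes (grey) and the 22 measured members, coloured by role. The members lie between -0.33 and 0.57, and the 6 that are at least 1.2-fold apart are named.

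None of the 3 measured regulators passed 1.2-fold, and their median absolute log2 difference was 0.19, against 0.11 over all genes. IRF1, a transcription factor induced by interferon gamma, had an intensity of 82.3 at 6 h and 79.4 at 0 h. Its other probe set gave 61.1 at 6 h and 81.1 at 0 h, a log2 difference of -0.41, so the gene has no settled direction. IRF7, which drives the late wave of type I interferon, had 76.1 at 6 h and 66.2 at 0 h, a difference of 0.20. IRF9, the DNA-binding subunit of the type I complex, had 172.7 at 6 h and 196.7 at 0 h, a difference of -0.19. A second set that names IRF9, shared with RNF31, had 165.7 at 6 h and 173.5 at 0 h, and so was also slightly lower. The viral RNA sensor IFIH1 and NLRC5, the activator of MHC class I genes, were not above the floor. IFIH1 read 7.1 to 8.5 on all of its 3 sets, and NLRC5 had 30.5 at 6 h and 28.2 at 0 h. The median of the 3 measured regulators was 0.05.

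ISG15 and the member enzymes HERC5 and USP18, which attach and remove it, were above the floor on both arrays. ISG15, a ubiquitin-like protein that is joined to other proteins and is also secreted, had an intensity of 3142 at 6 h and 2576 at 0 h, 1.22-fold higher at 6 h. It is read by 1 probe set. Of the 500 measured genes closest to it in mean brightness, 13 differed by as much in either direction, 9 of them upward. Such counts were made only for members with the larger differences, picked by the same values, so they are no test. The count in either direction was 209 for IRF7, 64 for IFITM1 and 46 for TAP2. HERC5, the main ligase for ISG15 in human cells, had 256 at 6 h and 232 at 0 h, a log2 difference of 0.14. USP18, which removes ISG15 and restrains the type I receptor, had 349 at 6 h and 325 at 0 h, a difference of 0.10. HERC6, a related HECT-domain protein, had 63.7 at 6 h and 67.9 at 0 h, a difference of -0.09. Apart from ISG15, these differences are smaller than the scatter of 0.16 between probe sets. The ADP-ribosylation group was not above the floor on any set. PARP9 and its partner ligase DTX3L, with PARP14, read between 9.0 and 28.2 on both arrays.

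Most of the antiviral effectors were not detected above the floor. Of 18 members 6 were measured (33.3%, where 64.1% of all genes were), with a median of -0.09. By any amount 2 were higher (33.3%) and 4 lower, where 54.3% of all genes were higher. Past 1.2-fold 2 were higher (33.3%) and 1 lower (16.7%), where 9.9% and 5.29% of all genes were. Whether these shares differ was not tested. OASL, an OAS-like protein that binds RIG-I, had 82.5 at 6 h and 55.4 at 0 h, 1.49-fold higher at 6 h, on 1 of its 2 probe sets. The other set read 29.3 at 6 h and 40.5 at 0 h, both under the floor, and so gives no direction. Of the 500 genes nearest in brightness to OASL, 18 differed by as much, 14 of them upward, and its log2 difference of 0.57 became 0.19 when the floor was raised to the 60th percentile. ISG20, an RNA exonuclease, had 58.9 at 6 h and 48.3 at 0 h, 1.22-fold higher, and its other set read 44.6 at 6 h and 35.3 at 0 h, under the floor. Of the 500 genes nearest to ISG20 in brightness, 153 differed by as much.

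The IFITM genes, which encode membrane proteins that block viral fusion, were lower at 6 h on each of their sets. IFITM1 read 29.7 at 6 h and 56.9 at 0 h. Since the 6 h value is under the floor, the difference is a bound of at least 1.25-fold lower at 6 h. With the floor at the 40th percentile, an intensity of 30.4, the 6 h value was still under it, and the bound on the log2 difference was -0.90. A set annotated with both IFITM2 and IFITM1 had 77.4 at 6 h and 109.6 at 0 h, a difference of -0.50. IFITM3 had 3070 at 6 h and 3537 at 0 h, a difference of -0.20. Of the 500 genes nearest in brightness, 48 differed by as much as IFITM3, 17 of them downward. The set annotated with IFITM2 alone, outside the 45 genes, had 1886 at 6 h and 2094 at 0 h, a difference of -0.15. The sequences of IFITM1, IFITM2 and IFITM3 are similar, and their sets end in _x_at or _s_at, marks for probes that can match other transcripts, so the values of the family are not independent.

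The 4 IFIT genes encode proteins that bind foreign RNA and lay at the floor. IFIT2 had 50.03 at 6 h and 54.0 at 0 h, and IFIT3 had 51.7 at 6 h and 54.1 at 0 h. Each has a second set under the floor, at 16.7 on both arrays for IFIT2 and at 9.8 at 6 h and 6.8 at 0 h for IFIT3. IFIT1 had 38.3 at 6 h and 35.9 at 0 h, and the brighter set of IFIT5 had 39.1 at 6 h and 37.4 at 0 h. All 4 are thus near the floor, and raising it to the 60th percentile left IFIT2 and IFIT3 unmeasured.

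The dynamin-like GTPases MX1 and MX2 were under the floor, MX1 at 18.6 at 6 h and 24.3 at 0 h, and MX2 at 39.6 at 6 h and 35.7 at 0 h. The RNA-sensing synthetases OAS1, OAS2 and OAS3 were under it on all of their 7 sets. The member just outside the floor was OAS2, with 43.1 at 6 h and 44.1 at 0 h, and the member just inside was IFIT2. BST2, which tethers virions to the cell surface, read 37.5 at 6 h and 41.0 at 0 h. The ubiquitin ligase TRIM22, the growth restraining proteins SAMD9 and SAMD9L, and the helicase DDX60 read between 6.2 and 21.5 on their 7 sets. No direction is given for members under the floor.

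Among the other interferon-induced genes 2 of 7 were measured (28.6%, where 64.1% of all genes were). IFI6, a mitochondrial and endoplasmic reticulum protein, had 133.8 at 6 h and 113.2 at 0 h, a log2 difference of 0.24. Of the 500 genes nearest to it in brightness, 134 differed by as much. IFI35, a leucine zipper protein, had 334 at 6 h and 323 at 0 h, a difference of 0.05. IFI27 was under the floor at 36.4 at 6 h and 37.5 at 0 h. IFI44, IFI44L, the XIAP-binding protein XAF1 and EPSTI1 were under it on all of their 8 sets, the brightest at 23.0. In all, the 22 members that were not measured have 38 probe sets, between 6.4 and 43.1 at 6 h and between 6.2 and 44.1 at 0 h.

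On their brightest sets B2M and the HLA genes were well above the floor and differed little between the arrays. Of the 7 MHC class I presentation genes, TAPBP was past 1.2-fold higher and TAP2, on its brightest set, past 1.2-fold lower. That is 14.3% each way, where 9.9% and 5.29% of all genes were. RNA was taken from whole cultures, so a low signal in all cells and a higher one in few cells cannot be told apart. B2M, the invariant light chain of MHC class I, had 7103 at 6 h and 6934 at 0 h, a log2 difference of 0.03. A second bright set had 6033 at 6 h and 6118 at 0 h. Another, dim set of B2M read 61.8 at 6 h and 40.4 at 0 h, at least 1.36-fold higher at 6 h, which the bright sets do not show. HLA-B, a classical heavy chain, had 3630 at 6 h and 3597 at 0 h, and its 3 sets lay between -0.16 and 0.01. HLA-C, also classical, had 3258 at 6 h and 3246 at 0 h, and its 4 sets lay between -0.05 and 0.08. HLA-E, a ligand of NK cell receptors, had 2783 at 6 h and 2608 at 0 h, and its 3 sets lay between 0.09 and 0.19.

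The annotation gave each of the 10 HLA probe sets a single gene, so 0 were annotated with several. However, 9 of them end in _x_at, and HLA heavy chain genes are near-identical over long stretches. The values of HLA-B and HLA-C, and of HLA-E on its brightest set, are thus uncertain as levels of single genes. Sets of this kind that go the same way are not independent. The 1 set of another type, for HLA-E, had 342 at 6 h and 299.9 at 0 h, a difference of 0.19. The brightest set of HLA-E, an _x_at set, had 2783 at 6 h and 2608 at 0 h.

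The probe sets of the peptide transporter genes and its partner had no shared direction. TAP1, one chain of the transporter, had 211 at 6 h and 215 at 0 h, a difference of -0.03. For TAP2, the other chain, the brightest set had 364 at 6 h and 447 at 0 h, 1.23-fold lower at 6 h, while a second set had 397 at 6 h and 337 at 0 h, 1.18-fold higher. Another, dim set had 53.6 at 6 h and 48.4 at 0 h. The sets of TAP2 therefore went opposite ways and give no direction for the gene. TAPBP, or tapasin, which bridges the transporter to empty MHC class I, had 343 at 6 h and 272 at 0 h, 1.26-fold higher at 6 h. Its second set above the floor had 95.6 at 6 h and 78.1 at 0 h, 1.22-fold higher, and the other was under the floor. TAPBP was thus the 1 member past 1.2-fold whose several measured sets moved the same way, and 46 of the 500 genes nearest in brightness differed by as much, 39 of them upward. Across the 7 members with several measured sets, only TAPBP and HLA-E had all sets on the same side.

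**Figure D4:**
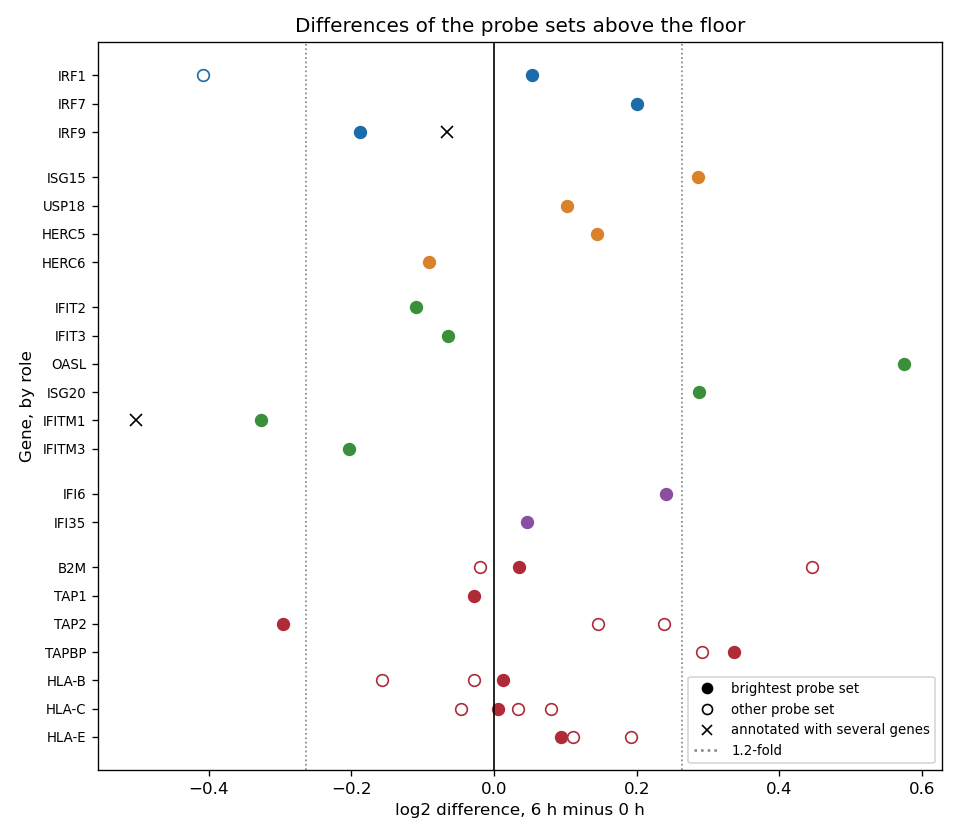
The log2 difference, 6 h minus 0 h, of every probe set above the floor on at least 1 array for the 22 measured members. Filled circles are the brightest set of a gene, open circles its other sets, crosses sets annotated with several genes, and dotted lines 1.2-fold; the sets of TAP2 lie at -0.30, 0.15 and 0.24, and both sets of TAPBP lie at 0.29 and 0.34.

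The genes upstream in the pathway were described from further lists. Of 18 interferon genes with a probe set, 17 were under the floor on both arrays, among them IFNB1, IFNG and IFNL1. IFNA17 read 48.9 at 6 h and 39.3 at 0 h, a bound of at least 1.08-fold higher, on an _x_at set of a family with near-identical members. By contrast, 17 of 18 genes of the receptors and their JAK-STAT partners were measured (94.4%, where 64.1% of all genes were). Their median was 0.03, and 0 were at least 1.2-fold higher or lower, where 9.9% and 5.29% of all genes were. STAT3, a signal transducer shared with cytokines of the interleukin 6 family, had 801 at 6 h and 681 at 0 h. IFNAR1, a chain of the type I receptor, had 292 at 6 h and 341 at 0 h, a difference of -0.23, with its other sets up to -0.03. SOCS2, a feedback inhibitor, had 726 at 6 h and 640.4 at 0 h, and the kinase TYK2 had 418 at 6 h and 382 at 0 h.

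Of 18 nucleic acid sensing genes 16 were measured, 6 higher and 10 lower, with a median of -0.01. EIF2AK2, the RNA-activated kinase PKR, had 988 at 6 h and 802 at 0 h, 1.23-fold higher, with its 2 sets at 0.11 and 0.30. DHX58, a regulator of the viral RNA sensors, had 67.7 at 6 h and 93.0 at 0 h, 1.37-fold lower on 1 set. CGAS, the sensor of cytosolic DNA, had 355 at 6 h and 297 at 0 h, and the RNA editing enzyme ADAR had 2543 at 6 h and 2281 at 0 h. EIF2AK2 and DHX58 were the 2 genes of this list past 1.2-fold, 1 each way. That is 6.25% higher and 6.25% lower, where 9.9% and 5.29% of all genes were, and by any amount 37.5% of the list was higher, where 54.3% of all genes were.

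Of 37 further interferon-stimulated genes 20 were measured (54%, where 64.1% of all genes were), with a median of -0.06. By any amount 8 were higher (40%) and 12 lower, where 54.3% of all genes were higher. The guanylate-binding proteins GBP1 to GBP5 and the chemokines CXCL9, CXCL10 and CXCL11 were under the floor on both arrays. HELZ2, a helicase, had 119.6 at 6 h and 87.4 at 0 h, but its 3 sets lay between -0.48 and 0.45, and their median was -0.069. TRIM5, which restricts retroviruses, had 122.7 at 6 h and 100.2 at 0 h. BATF2, a transcription factor, had 61.1 at 6 h and 74.7 at 0 h, and TRIM14 had 764 at 6 h and 910.3 at 0 h. Past 1.2-fold, 2 genes of this list were higher, HELZ2 among them, and 1 was lower. These are 10% and 5% of the list, near the 9.9% and 5.29% of all genes.

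Of 19 other genes of the MHC class I pathway 16 were measured, 10 higher and 6 lower, with a median of 0.07. RFX5, which binds MHC promoters, had 2140.2 at 6 h and 1680.3 at 0 h, 1.27-fold higher, with its 2 sets at 0.22 and 0.35. It was the 1 gene of the list past 1.2-fold, which is 6.25%, where 9.9% of all genes were as much higher. By any amount 62.5% of the list was higher, where 54.3% of all genes were. The proteasome activator subunit PSME1 had 1319 at 6 h and 1143 at 0 h. Of the immunoproteasome subunits, PSMB9 had 58.7 at 6 h and 69.6 at 0 h and PSMB10 had 1275 at 6 h and 1461 at 0 h, neither past 1.2-fold, and PSMB8 was under the floor. For MHC class II, 7 of 13 genes were measured (54%, where 64.1% of all genes were), and its activator CIITA was under the floor. By any amount 5 were higher (71.4%) and 2 lower, where 54.3% of all genes were higher. Past 1.2-fold 1 was higher and 1 lower, 14.3% each way, where 9.9% and 5.29% of all genes were. HLA-DMA, which helps load peptides on class II, had 115.3 at 6 h and 69.6 at 0 h, 1.66-fold higher on 1 set. HLA-DMB, its partner chain, had 88.4 at 6 h and 77.5 at 0 h, and HLA-DQB1 had 69.2 at 6 h and 61.8 at 0 h. The log2 difference of HLA-DQB1 was 0.16 on this set and 0.01 on its other set, and it was -0.13 when sets annotated with several genes were added, so it has no settled direction. CD74, the invariant chain, had 45.3 at 6 h and 60.4 at 0 h, a bound of at least 1.33-fold lower.

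Over all probe sets the median intensity was 44.9 at 6 h and 45.8 at 0 h, and 49.8% at 6 h and 50.2% at 0 h lay above the floor. The labels call the cells type II alveolar. Of 8 markers of that cell type 6 were measured (75%, where 64.1% of all genes were), with a median of 0.26. Past 1.2-fold, 33.3% were higher and 33.3% lower, where 9.9% and 5.29% of all genes were. By any amount 4 were higher (66.7%) and 2 lower, where 54.3% of all genes were higher. The higher ones were SFTPB at 0.35, NKX2-1 at 0.28, ABCA3 at 0.26 and NAPSA at 0.26, and the sets of SFTPB and NKX2-1 did not all have the same sign. LPCAT1 had 1073 at 6 h and 1314 at 0 h, and the surfactant protein gene SFTPC had 92.3 at 6 h and 113.3 at 0 h. The 4 measured sets of SFTPC lay between -0.30 and 0.02, so they did not all have the same sign either. SFTPD and SLC34A2 were under the floor. Of 7 epithelial markers 3 were measured (42.9%), all of them keratins. KRT7 had 49.8 at 6 h and 57.7 at 0 h, and KRT8 had 52.4 at 6 h and 48.1 at 0 h. KRT18 had 120.9 at 6 h and 148.2 at 0 h. EPCAM, KRT19, CDH1 and CLDN4 were under the floor. PTPRC, the defining surface protein of leukocytes, was also under it, at 12.9 at 6 h and 17.0 at 0 h. Of 10 leukocyte markers 2 were measured (20%). These were CD3D, with 62.6 at 6 h and 55.8 at 0 h, and IL3RA, with 72.8 at 6 h and 86.8 at 0 h. Of 7 fibroblast markers 3 were measured (42.9%), COL1A1, THY1 and, above the floor at 0 h only, DCN.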

How the data were processed

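CL1-0 arrays, 1 at 6 h and 1 at 0 h of an FSTL1 antibody, were compared. The authors deposited an intensity for each probe set, not on a log scale. The summary method was MAS5, per the submitters' processing notes; its settings and any scaling between the arrays are not given in the sources used here. The method subtracts a local background and mismatch signal, so dim values are noisy. Probe sets were named through the platform annotation, with symbols updated by Entrez identifier through a RefSeq table (GRCh38.p14): 41091 had 1 gene, 41037 of them matched, and 1801 had several and entered no gene value. Values under the 50th percentile were set to it and put on log2. Where 1 array was at the floor, the difference is a bound.

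With 1 array per group no test was possible, and the number of arrays limits the precision. Every member was described, and of each further list up to 4 measured genes with the largest difference were named; interferon, GBP, CXCL, PSMB8, CIITA and cell type genes and IFITM2 were named after their values were seen. Members and lists were chosen with earlier results of these data known. Alternatives were floors at the 40th and 60th percentile, no floor with log2(value + 16), median centring, quantile and loess scaling (span 0.3), the median over the sets of each gene, leaving out _x_at and _s_at sets, and adding sets with several genes. The steps were tested on simulated data. The changes made there were larger than 1.2-fold, in genes well above the floor, with noise smaller than the scatter between probe sets. That test therefore does not tell how well small differences or differences near the floor are recovered. Python 3.11.15, pandas 2.3.3 and statsmodels 0.14.6 were used.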

Additional observations from a re-analysis of the deposited data

How the results depend on the processing

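The median of the measured members, 0.04 over 22 in the main setting, kept its sign under all 9 alternatives, between 0.01 and 0.14. The lowest came with quantile scaling, where 11 members were higher and 11 lower, so its sign says little. The highest came from the 13 members left without _x_at and _s_at probe sets. All moves were smaller than 0.16, the SD between probe sets of a gene. For a median over many genes that is a wide margin. The number of members measured was 44 with no floor and 13 without _x_at and _s_at probe sets, which leaves out, among others, the sets of ISG15, OASL, IFITM1, IFITM3, HLA-B and HLA-C. With the floor at the 60th percentile, 1.2-fold was passed upward by 2 members and downward by 1. Lower by 1.2-fold was 1 member with the median over the sets of each gene and 0 without _x_at and _s_at sets. The median of the regulators and sensors was -0.18 with the median of probe sets, set by the opposed sets of IRF1, and -0.07 without _x_at and _s_at sets. That of MHC class I presentation was 0.29 without _x_at and _s_at sets, which leaves 4 genes, with B2M and TAP2 on other sets, and its sign changed under 3 scalings; that of the antiviral effectors changed sign with no floor, at 0.03, and that of the receptors and JAK-STAT genes with quantile and loess scaling, at -0.02 and -0.01. Without _x_at and _s_at sets the median of the other interferon-stimulated genes was 0.06, in place of -0.06, and that of MHC class II -0.07, in place of 0.08. The MHC class II median was at -0.03 with several-gene sets added. TAP2 was reversed with the median of probe sets (0.15) and without _x_at and _s_at sets (0.24), as was HELZ2 with the median of probe sets (-0.069). HLA-DQB1 was -0.13 with several-gene sets added. Of 413 values of single genes and lists under the alternatives, 400 moved by less than that SD. Many of these could not move, since a gene with 1 measured set keeps its value under several alternatives. Sign changes within that SD also count among the 400. HLA-B changed sign in 4 of 8 alternatives, HLA-C in 3 of 8 and IFI35 in 2 of 8. The count is thus no measure of how firm the values are. No paired analysis was possible because each group has 1 array. Without detection calls or replicates, signal near the floor cannot be told apart from background.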
